A study of Schizophyllum commune with 6 samples.

Results

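The genes described here are 107 gene models of the split-gill mushroom Schizophyllum commune, of 14652 measured. Their RNA was higher in a strain lacking dhc2 than in either wild-type strain. They were chosen from the RPKM values themselves (reads scaled to the length of the model and the depth of the library). Both knockout libraries had to reach 10 RPKM, and the lower of them had to be at least 4 times the highest of the 4 wild-type values. The means of the wild types plus 0.5 had to lie within 2-fold of each other, and models at 0 in both libraries of a wild type were dropped. The members are 1.31% of the 8174 models with both knockout libraries at that level. The rule also left out 1 model by its identifier, the pheromone gene bap3-3, which met the 10 RPKM and the 4-fold conditions. Whether it met the remaining conditions was not checked. The levels below are therefore descriptions of how the members were chosen, and no difference between strains is tested on them.

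RNA sequencing was done on mycelium grown on solid CYM medium for 3 days at 28 °C, with 3 groups of 2 libraries each. Wild type 12-43 has mating type A3,5 with B2,2. The knockout, labelled delta_dhc2, has that same mating type, and wild type E6 has A4,6 with B2,1. All strains are labelled monokaryons, although the growth protocol speaks of mycelium from a mating interaction, and the labels do not say how many transformants or cultures stood behind the libraries. The spread between replicates may therefore be technical.

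Dynein is a motor that walks along microtubules towards their minus ends, and it is assembled around a heavy chain that binds and hydrolyses ATP. In filamentous fungi it moves nuclei and other cargo through the hyphae. The deleted gene, dhc2, encodes dynein heavy chain 2. In S. commune nuclei migrate through the mycelium of the partner after mating, and the series as a whole asks what changes after mating.

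The reads behind the values could be recovered, and each library was scaled by its authors to between 8769918 reads (12-43 replicate 2) and 14372979 reads (knockout replicate 1). In 12-43 replicate 1 and both knockout libraries the quality reports list the 5-base sequence GAAGA as enriched and give 59% GC. In 12-43 replicate 2 and both E6 libraries it is not listed, and GC is 56% to 58%. The hydrophobin gene SC3, known from aerial hyphae, ranked between 4 and 6 among all models in every library. Which model is dhc2 could not be looked up by symbol, so its own reads are not given and the knockout label is unchecked by them.

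Only 28 of the 107 members could be paired with a locus tag of the RefSeq gene table (assembly Schco3), and that table gives no product names. Of 39 measured models with a gene symbol 1 was a member, ura1. The other members are therefore given by their model identifiers, with no function. None of the 12 measured hydrophobin models and none of the 14 measured pheromone and receptor models was a member. The pheromone model that the rule left out by its identifier could not have been one. Members were 0.73% of all models, so their absence from lists this short does not set these families apart.

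The ura1 gene (model 1036814) encodes orotidine-5'-phosphate decarboxylase, the last enzyme of UMP synthesis, and serves as a selectable marker in fungal transformation. Its level was 7.74 and 10.8 RPKM in 12-43, 213 and 214 in the knockout, and 14.7 and 14.2 RPKM in E6. These rest on 91 and 79, 2563 and 2486, and 113 and 155 reads. The knockout libraries lay far above all 4 wild-type libraries, and those of 12-43 lay below those of E6. The mean in the knockout was 23.1 times that in 12-43 and 14.8 times that in E6. By the ratio of the lower knockout to the highest wild-type value, which was 14.5, ura1 was the 24th of the members. By level ura1 ranked 884 of all models in the knockout, 8265 in 12-43 and 7005 in E6.

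**Figure D1:**
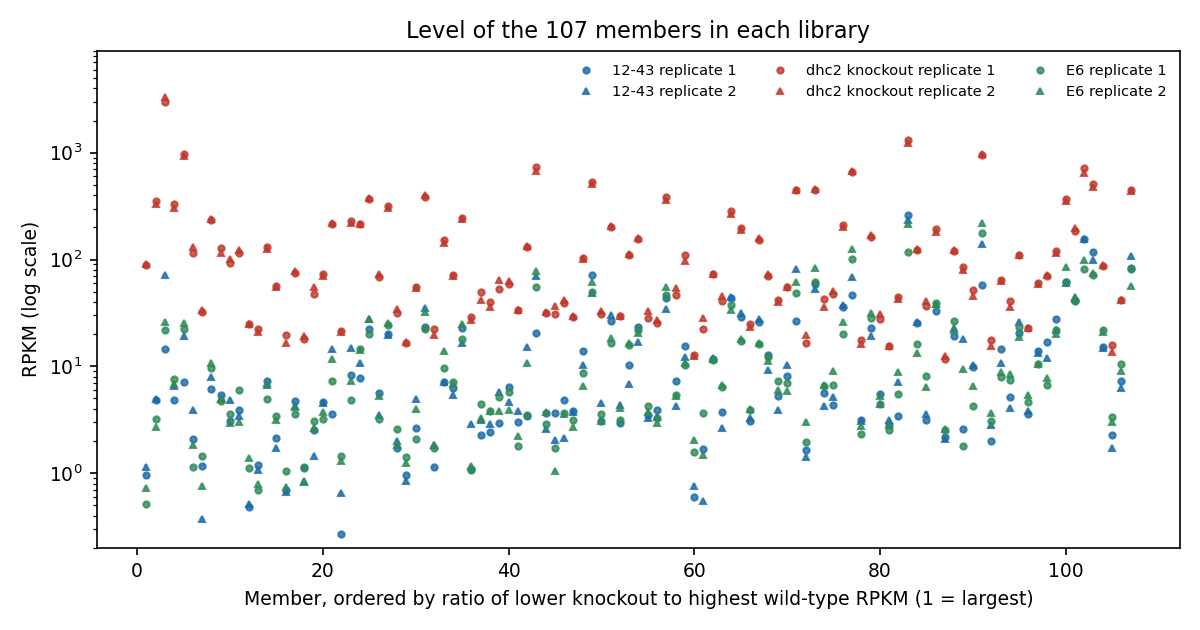
RPKM (log scale) of each of the 107 members in each of the 6 libraries, ordered along the x axis by the ratio of the lower knockout to the highest wild-type value. The red knockout points lie above the blue 12-43 and green E6 points for each member, as the rule requires, and the mean knockout levels run from 12.1 to 3147 RPKM.

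The ratio of the lower knockout to the highest wild-type value ran from 4.01 to 77.9, with a median of 6.65. It was at least 5 in 80 members, at least 10 in 33 and at least 20 in 9. The mean level in the knockout had a median of 71.7 RPKM, against 5.69 RPKM in 12-43 and 6.63 RPKM in E6. Most members were weakly read in the wild types: the highest wild-type value was under 10 RPKM in 57 members and under 2 RPKM in 9. All 107 had reads in all 6 libraries, and the smallest number was 1 read in a wild-type library and 67 reads in a knockout library.

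The largest ratio was that of model 1161353, with a coding length of 1692 nt. It stood at 0.967 and 1.15 RPKM in 12-43, 89.2 and 91.3 in the knockout, and 0.513 and 0.727 RPKM in E6. The wild-type values rest on 8 to 23 reads a library and those of the knockout on 2170 and 2141 reads. Its mean level ranked 11751 of all models in 12-43, 12288 in E6 and 2140 in the knockout.

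Model 1030522 combined a high ratio, 67.4, with a high level. It was at 4.87 and 4.95 RPKM in 12-43, 353 and 334 in the knockout, and 3.20 and 2.71 RPKM in E6. The replicates of each strain were close to each other, and the knockout level ranked 504 of all models, against 9598 in 12-43 and 10607 in E6.

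Model 1124671 was the most abundant member. It was at 14.6 and 71.1 RPKM in 12-43, 2963.5 and 3329.7 in the knockout, and 22.0 and 26.0 RPKM in E6. In the knockout it ranked 20 among all models and took 9.46% and 10.7% of all the members' reads in replicates 1 and 2. The 12-43 libraries differed 4.85-fold here, replicate 2 being the highest wild-type value, and E6 lay between them. Against 12-43 replicate 1, the wild-type library that shares the GAAGA signature with the knockout, the lower knockout value was 202 times as high, and against replicate 2 it was 41.7 times as high.

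Model 1028812 had a similar shape, at 7.18 and 19.4 RPKM in 12-43, 966 and 939.6 in the knockout, and 22.4 and 25.2 RPKM in E6. Here too 12-43 replicate 1 was the lowest library, and the other wild-type libraries lay close together. Model 1139544, with a coding length of 558 nt, was at 4.85 and 6.54 RPKM in 12-43, 330.2 and 303 in the knockout, and 7.59 and 6.89 RPKM in E6, a ratio of 39.9 with little spread among the wild-type libraries.

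Another 5 members complete the 10 with the largest ratios. Model 1149020 was at 2.08 and 3.91 RPKM in 12-43, 116 and 129.8 in the knockout, and 1.15 and 1.82 RPKM in E6. Model 1134410 was at 6.09 and 7.96, 234 and 240.2, and 9.56 and 10.8 RPKM in the same order. These differ in the wild types, since 1149020 was higher in 12-43 than in E6 and 1134410 was lower. Model 258787 was even across the wild types, at 5.40 and 4.99 RPKM in 12-43 and 4.75 and 4.90 RPKM in E6, and stood at 128 and 115 RPKM in the knockout. Model 1153547 was at 3.08 and 4.82 RPKM in 12-43, 93.0 and 102 in the knockout, and 3.55 and 2.95 RPKM in E6. Both had ratios near 20, of 21.4 for 258787 and 19.3 for 1153547.

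Model 1051196 rests on few wild-type reads. The 12-43 libraries held 5 and 1 of its reads, the knockout libraries 139 and 141, and the E6 libraries 4 and 3, over a coding length of 303 nt. Per read of the library denominators the knockout pair was 34.4 times the 4 wild-type libraries together, with an exact 95% interval of 19.8 to 65.4. That interval covers counting error only, and the same libraries served to choose the model. Only 2 other members, 1091853 and 1200136, had 3 or fewer reads in any wild-type library, with ratios of 23.6 (14.6 to 40.4) and 14.1 (8.51 to 24.8) by the same count.

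**Figure D2:**
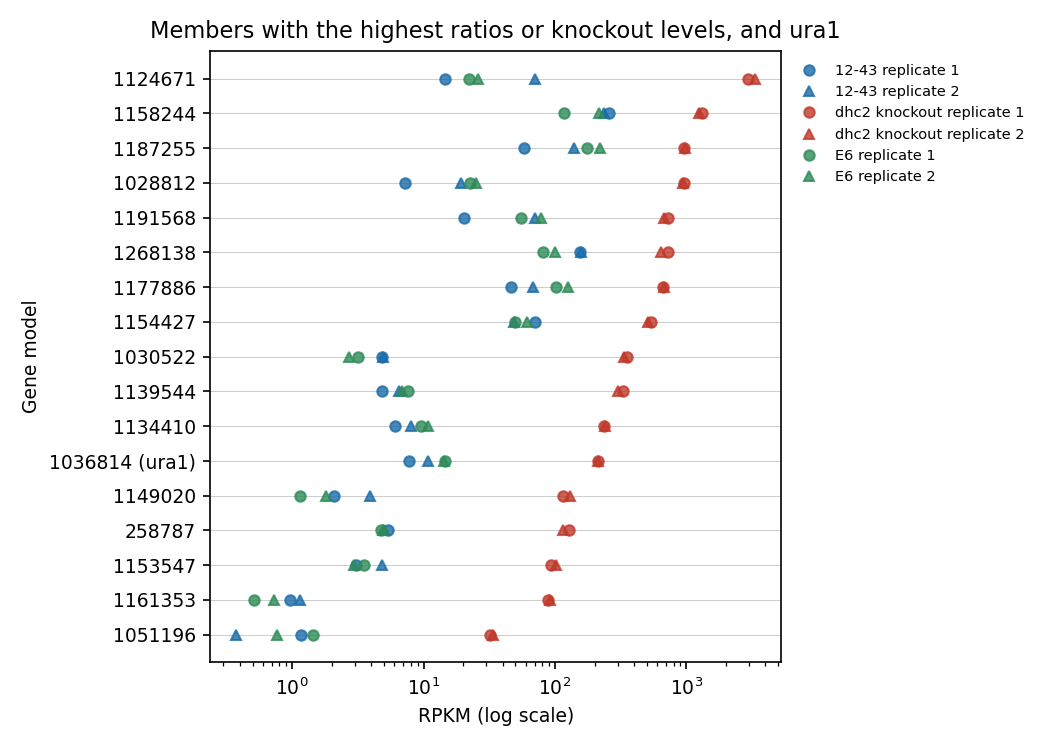
RPKM (log scale) in each library for the 10 members with the largest ratios, the 8 with the highest knockout levels and ura1. Circles are replicate 1 and triangles replicate 2. The knockout pairs nearly coincide, while in 12-43 replicate 1 lies well below replicate 2 for 1124671, 1187255, 1028812 and 1191568.

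By level, 8 members exceeded 500 RPKM in the knockout and 2 of these exceeded 1000 RPKM. Model 1158244 was abundant in every strain, at 258 and 235 RPKM in 12-43, 1305 and 1237 in the knockout, and 117 and 214 RPKM in E6. It had the highest level of any member in 12-43, ranking 741 there and 88 in the knockout, while in E6 it ranked 1138 and 1187255 ranked higher, at 951. Model 1187255 was at 58.4 and 140.3 RPKM in 12-43, 954 and 981 in the knockout, and 176 and 219.8 RPKM in E6. Its ratio of 4.34 is set by E6, and against the 12-43 mean the knockout was 9.74-fold higher.

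Model 1191568 was at 20.4 and 70.0 RPKM in 12-43, 727 and 678 in the knockout, and 54.8 and 78.8 RPKM in E6. Model 1177886 was at 46.6 and 67.9, 658 and 679, and 101 and 125 RPKM. In both, 12-43 replicate 1 was the lowest library. Model 1268138 went the other way between the wild types, at 156 and 157 RPKM in 12-43 and 81.2 and 99.5 RPKM in E6, with 719 and 645 RPKM in the knockout. Model 1154427, at 70.9 and 48.6, 536 and 512, and 49.9 and 61.4 RPKM, did not separate the wild types.

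Together the members took 2.17% and 2.16% of the recovered reads in the knockout libraries, against 0.205% and 0.228% in 12-43 and 0.201% and 0.232% in E6. Of the 500 most abundant models of the knockout 16 were members, and none of the 500 most abundant models of 12-43 or of E6 was. The median rank of a member was 2656 in the knockout, 9307 in 12-43 and 9017 in E6. In mycelium measured in bulk, more RNA per cell and more cells or hyphal compartments that express a gene cannot be told apart.

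**Figure D3:**
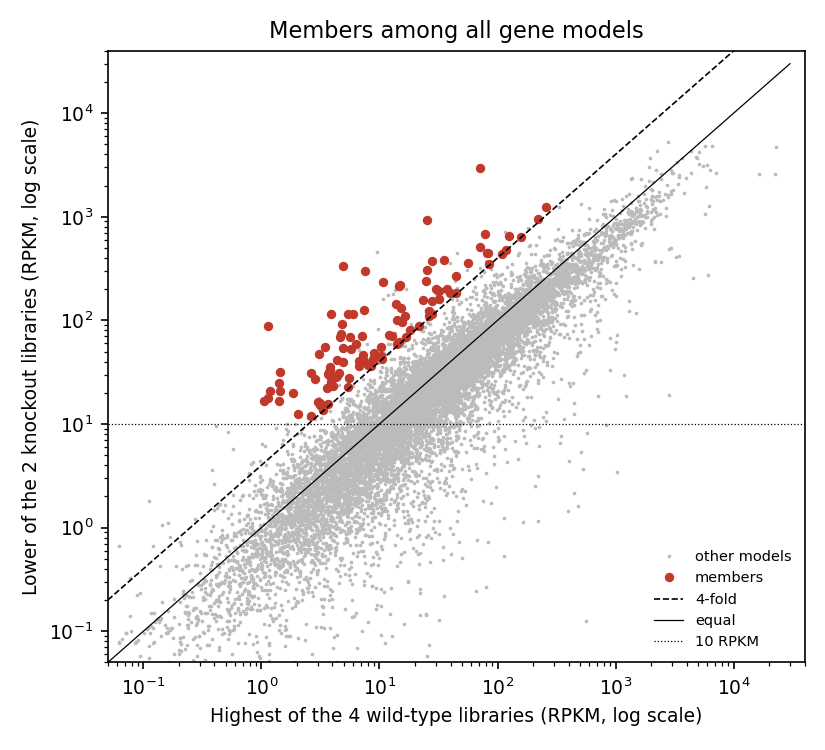
Each model with reads on both axes, by the highest of the 4 wild-type libraries (x) and the lower of the 2 knockout libraries (y), in RPKM on log scales. The 107 members (red) lie above the 4-fold line and the 10 RPKM line. Grey points in that corner are models whose wild types differed by more than 2-fold and the 1 model the rule left out.

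The members did not all stand equally clear of the threshold. The 3 just inside were 1157013 at a ratio of 4.01 (82.6 and 109 RPKM in 12-43, 448 and 437 in the knockout, 81.7 and 56.7 RPKM in E6), 1216223 at 4.01 and 1334699 at 4.02. The 3 just outside, with all other conditions met, were 1158466, 1211021 and 62798, each at 3.98. Model 1158466 was at 3.74 and 3.55 RPKM in 12-43, 18.8 and 14.9 in the knockout, and 3.44 and 3.38 RPKM in E6. A total of 31 models had a ratio from 3 to 4, so the threshold cuts through a continuous range.

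Each library in turn could be left out of the choice, while the values on the other side of each fold still served to choose. When the rule was applied without knockout replicate 2 it chose 110 models, and in that left-out library 108 of them were at least 4 times the highest wild-type value, with a median of 6.88 times and a lowest value of 3.89 times. Without knockout replicate 1 it chose 119 models, of which 111 were at least 4-fold in the left-out library (lowest 3.26 times). Leaving out a knockout library only relaxes the rule, so both lists hold all members by construction, and these reach 4-fold in the left-out library too. When a wild-type library was left out instead, 107 to 114 models were chosen. In 90.4% to 97.3% of them the lower knockout value was at least 4 times that of the left-out library. These shares are largely fixed, since 96 to 103 of the chosen models were members, which reach 4-fold there by the rule. Over all models chosen, the lowest fold over the left-out library was 3.21 for 12-43 replicate 1 and 1.47 for 12-43 replicate 2. It was 2.16 for E6 replicate 1 and 2.78 for E6 replicate 2. Every model chosen in these 6 rounds was higher in the knockout than in the left-out wild-type library, or higher in the left-out knockout library than in the wild types. Since the choice used part of each fold and the replicates may be technical, these rounds are descriptions and no test of the difference.

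The replicates of the knockout were close for the members. The larger value was at most 1.28 times the smaller, with a median of 1.05 times. The SD of the log2 difference between replicates on the log2(RPKM + 0.5) scale was 0.115 over the members, against 0.221 over the 12480 models read in all libraries. Low values weigh on the latter, and both knockout values of a member are at 10 RPKM or more by rule.

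The wild-type replicates spread more widely. The SD of the log2 difference was 0.643 for the members in 12-43 (0.36 over all models read in all libraries) and 0.411 in E6 (0.299). The highest wild-type value was under 10 RPKM in 57 of the 107 members. Some widely spread members rest on few 12-43 reads (11 and 48 for 1134237, 11 and 18 for 113589). Others rest on more (142 and 430 for 1124671, 716 and 1074 for 1187255). The part of counting in this spread was not tested. On that scale 11 members (10.3%) differed by more than 2-fold between the 12-43 replicates, against 1.79% of all models. Among models with a wild-type mean from 1 to 100 RPKM, a window chosen after the values were seen that does not match levels within it, the shares were 10.3% of 97 members and 1.72% of 9942 models. Of the 11 members counted without that window, replicate 2 was the higher in 9, and in all 9 replicate 2 was the higher in E6 as well. Among all models the wide differences in 12-43 also lay mostly that way, with replicate 2 the higher in 155 of 223, and in 96 of those 155 (61.9%) replicate 2 was the higher in E6. These members were singled out after their values had been seen.

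The widest was model 1134237, at 2.58 and 18.1 RPKM in 12-43, 84.7 and 80.3 in the knockout, and 1.79 and 9.38 RPKM in E6. Its wild-type values rest on 11 and 48 reads in 12-43, and on 5 and 37 in E6. Model 1197868 followed, at 3.43 and 15.1 RPKM in 12-43, 131 and 134 in the knockout, and 3.49 and 10.8 RPKM in E6. Both are short, with coding lengths of 303 and 249 nt, and both split the replicates of each wild type but not those of the knockout.

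Model 1156712 was at 3.55 and 14.6 RPKM in 12-43, 216 and 221 in the knockout, and 7.32 and 11.6 RPKM in E6. Model 1092711 was at 26.5 and 81.6, 450.4 and 444, and 48.7 and 61.4 RPKM. The other 5 of the 9 were 1124671, 1191568, 1028812, 1187255 (all above) and 113589. Of the 5 most abundant members 4 were thus among those with 12-43 replicate 1 more than 2-fold below replicate 2. In 7 of the 9, all but 1134237 and 113589, replicate 1 of 12-43 was the lowest of all 6 libraries. The library signature separates 12-43 replicate 1 from 12-43 replicate 2, and its part in these values was not tested. It does not separate the E6 replicates.

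**Figure D4:**
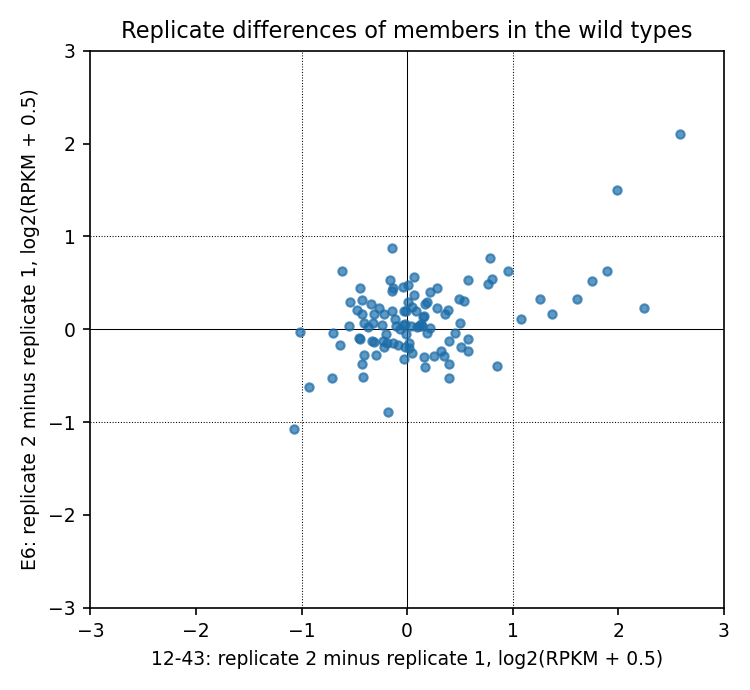
Difference between replicate 2 and replicate 1, on the log2(RPKM + 0.5) scale, for each of the 107 members in 12-43 (x) and in E6 (y). Dotted lines mark 2-fold. To the right of the dotted line are 9 members, all with a positive difference in E6 too, and 2 lie to the left of it.

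Within the library signature that the knockout shares with 12-43 replicate 1, the lower knockout value was 4.10 to 202 times that of this wild-type library, with a median of 10.2 times. A value of at least 4 follows from the rule. E6 has no library with that signature, so for E6 the strain and the signature cannot be told apart.

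The wild types were held within 2-fold of each other by the rule. Inside that range 75 members lay within 1.5-fold. The mean was higher in 12-43 in 51 members and higher in E6 in 56, and the median log2 difference was -0.04. In 38 members the libraries of the wild types overlapped, in 31 both 12-43 libraries lay above both E6 libraries, and in 38 both lay below. These counts were not made over all models, so they describe the members without setting them apart. Between the wild types limma called 59.4% of all models tested. Neither wild type was thus the higher throughout.

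With the strains exchanged and the same conditions, 76 models were high only in 12-43 and 88 high only in E6, against the 107 of the knockout. As a share of the models with both libraries of that strain at 10 RPKM or more, these are 0.970%, 1.13% and 1.31%. The largest ratios were found in the other lists, at 208 for 12-43 and 988 for E6 against 77.9 for the knockout, while the medians were 6.75, 8.11 and 6.65. Ratios of 20 or more were reached by 13, 19 and 9 models. The difference between these counts was not tested, since each list comes from a single strain. Without the condition that the other strains be alike, the lists grew to 99, 114 and 151 models.

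**Figure D5:**
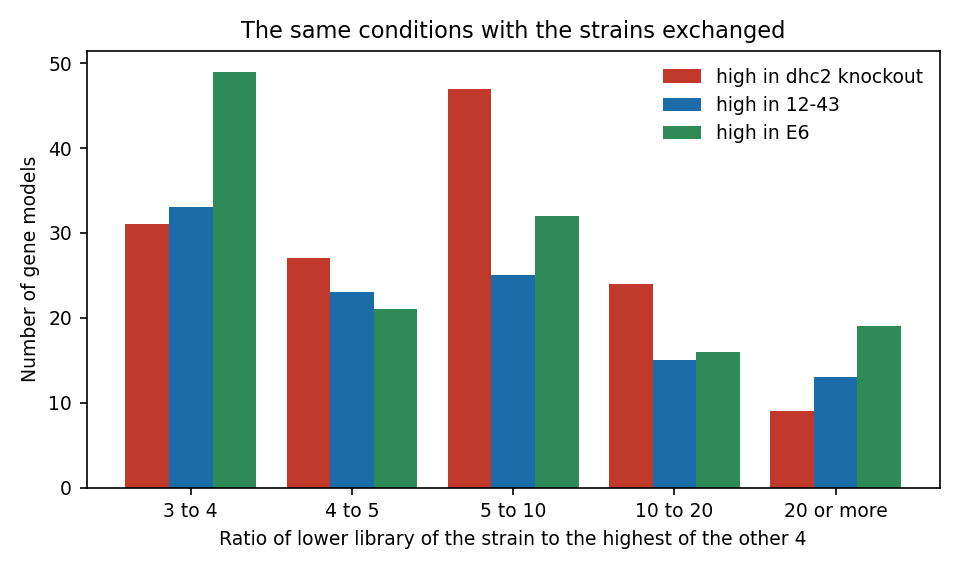
Number of models by the ratio of the lower library of a strain to the highest of the other 4 libraries, with all other conditions met, for the knockout (red), 12-43 (blue) and E6 (green). The knockout has 47 models at 5 to 10 and 24 at 10 to 20, more than the other strains, and 9 at 20 or more, fewer than they have.

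The members covered a wide range of sizes. The coding length recovered with the reads had a median of 1074 nt and ran from 210 nt (1200136) to 4365 nt (1139130). Over all models with reads the median was 1113 nt. Models under 300 nt made up 1.87% of the members (2 models) and 5.58% of all models with reads. The share among models with both knockout libraries at 10 RPKM was not computed, so these shares do not set the members apart. Another long member was 1163017, of 4359 nt, at 20.1 and 19.8 RPKM in 12-43, 317 and 307 in the knockout, and 24.4 and 25.4 RPKM in E6. It combined a ratio of 12.1 with 18527 or more reads in each knockout library, and its replicates differed by at most 1.04-fold in any strain.

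The genes beside the members were not chosen by the rule and could be tested. The 28 paired members had 12 measured immediate neighbours in the order of the reference table. None of these was itself a member, beside 0.73% of all models. Tested by limma (moderated linear models on log2(RPKM + 0.5), Benjamini-Hochberg adjustment over 12484 models), 6 of the 12 were higher in the knockout than in 12-43, 3 were lower and 3 were not called. Over all models tested 27.8% were called higher and 26.9% lower in this comparison, 54.7% in all. Against E6, 5 of the 12 were higher, 3 lower and 4 not called, beside 31.8% and 30.9% of all models, 62.7% together. With the library signature as a covariate the calls against E6 fell to 2 neighbours higher, 2 lower and 8 not called, beside 38.1% of all models. Leaving out knockout replicate 1 or replicate 2 left 1 neighbour in place of 3 called lower than in 12-43. Between the wild types 59.4% of all models were called, 30.3% higher and 29.1% lower in E6. The first 2 comparisons share the knockout libraries. The median log2 change of the neighbours was 0.49 against 12-43 and 0.17 against E6, and that of all models was -0.01 and 0.

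Member 1189135 was measured with its neighbours on both sides. It was at 2.65 and 4.94 RPKM in 12-43, 55.5 and 54.2 in the knockout, and 2.11 and 3.95 RPKM in E6. Its neighbour 1212437 was at 9.44 and 8.03, 23.0 and 21.9, and 11.8 and 12.9 RPKM. By limma it was higher than in 12-43 by 1.31 on the log2 scale (SE 0.12, adjusted p = 0.00012) and higher than in E6 by 0.75 (SE 0.12, adjusted p = 0.0016). On the other side 1124121 was at 25.2 and 27.1, 45.5 and 47.1, and 28.5 and 31.5 RPKM, with changes of 0.81 (SE 0.11, limma adjusted p = 0.00067) and 0.53 (SE 0.11, limma adjusted p = 0.0042). Both neighbours rose in the knockout. The size of these changes cannot be set against that of the member, which was chosen for its difference. With the library signature as a covariate the call on 1212437 against E6 was lost (log2 change 0.61, adjusted p = 0.056).

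Member 1158444 also had a measured neighbour on each side. Model 111683 was at 14.1 and 10.02 RPKM in 12-43, 22.6 and 21.0 in the knockout, and 11.7 and 12.7 RPKM in E6. It rose against 12-43 (log2 change 0.84, SE 0.16, limma adjusted p = 0.0033) and against E6 (0.73, SE 0.16, limma adjusted p = 0.0054), the latter call being lost with the covariate (0.34, adjusted p = 0.23). On the other side 78366 differed from 12-43 by -0.14 without passing the test (adjusted p = 0.44).

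Model 62138, beside member 238478, fell in the knockout by 1.00 on the log2 scale against 12-43 (SE 0.15, limma adjusted p = 0.0013) and by 1.12 against E6 (SE 0.15, limma adjusted p = 0.00064). The member was at 2.55 and 1.46 RPKM in 12-43, 47.2 and 55.6 in the knockout, and 3.06 and 2.66 RPKM in E6. Model 62138 thus moved the opposite way to its member. Model 71133, beside member 1176650, rose against 12-43 (log2 change 0.91, SE 0.13, limma adjusted p = 0.0011) and differed by 0.32 from E6 without passing the test (adjusted p = 0.072).

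Another pair of neighbours had its lowest levels in 12-43. Model 235628, beside member 56644, was at 1.34 and 1.05 RPKM in 12-43, 12.3 and 12.1 in the knockout, and 16.8 and 15.7 RPKM in E6. It rose against 12-43 (log2 change 2.90, SE 0.14, limma adjusted p = 5.5e-06) and fell against E6 (-0.48, SE 0.14, limma adjusted p = 0.021), the latter call being lost without any single knockout or E6 library (adjusted p from 0.05 to 0.12, log2 changes from -0.53 to -0.43). Its member 56644 was instead low in both wild types, at 4.87 and 2.15 RPKM in 12-43 and 3.66 and 3.57 RPKM in E6, against 39.3 and 41.4 RPKM in the knockout. On its other side 28086 fell in the knockout, by 0.36 on the log2 scale against 12-43 (SE 0.11, limma adjusted p = 0.026) and by 1.65 against E6 (SE 0.11, limma adjusted p = 2.1e-05), the opposite way to the member. The call against 12-43 was lost without knockout replicate 1, without knockout replicate 2 and without 12-43 replicate 2 (adjusted p from 0.072 to 0.15). Model 1158954, beside member 112243, was read 0 and 1 times in 12-43, 28 and 11 times in the knockout and 30 and 23 times in E6. Per read of the library denominators this is a ratio of 31.5 between knockout and 12-43 with an exact 95% counting interval of 5.34 to 1277, and limma called it higher than in 12-43 (log2 change 2.11, SE 0.40, adjusted p = 0.0035). Its member was at 2.16 and 2.09 RPKM in 12-43, 11.8 and 12.5 in the knockout, and 2.51 and 2.61 RPKM in E6, the lowest knockout level of all members.

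No pair of the 28 had fewer than 2 genes between its members. Members 238362 and 258787 were the closest pair in the reference order, with 2 genes between them. The first was at 8.11 and 10.2 RPKM in 12-43, 55.8 and 55.9 in the knockout, and 6.96 and 5.86 RPKM in E6, and the second is described above. The gene between them that could be measured, 238363, was at 31.9 and 37.6, 39.3 and 39.6, and 24.1 and 23.6 RPKM. It differed from 12-43 by 0.18 on the log2 scale without passing the test (adjusted p = 0.26) and rose against E6 by 0.63 (SE 0.12, limma adjusted p = 0.0035). The next closest pair, 61757 and 31674, had 19 genes between them. Since 79 members have no place in that table, further adjacent members were not looked for.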

How the data were processed

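The authors deposited RPKM with decimal commas for 14652 gene models in each of 6 libraries, per the file headers, each followed by a quality report of the reads. TopHat, DESeq and edgeR are named without role or version in the submitters' processing notes. How reads were assigned to models, whether by strand, and against which build is not given in the sources used here, so reads of near-identical, overlapping or antisense genes may be split in unknown ways.

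Because low RPKM fall on steps of 1 read, reads, library denominators and coding lengths (multiples of 3) could be solved. All 13715 models above 0 came out whole within 0.005 reads. Reads and lengths are the smallest that fit. A value of 0 allows up to 3 reads, 0.209 to 0.342 RPKM at 1 kb. Denominators were 46.0% to 58.7% of the raw reads.

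Member selection used the RPKM as deposited. Neighbours were tested with limma 3.58.1 (R 4.3.3) on log2(RPKM + 0.5) after trimmed-mean scaling (30% trimmed on the log ratio, 5% on the mean level), with trended variance, all 6 libraries in a single fit and a threshold of 0.05 on the adjusted p. Such fold changes understate those of low genes. Models entered with 0.744 CPM in at least 2 libraries and 15 reads in all, which left 12484. The scripts were tested on simulated data.

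The members and lists were chosen with earlier results of these data known. Named are the 10 members with the largest ratios, the 8 with the highest knockout means, those with a symbol, the 3 on each side of the threshold, and the 5 immediate neighbours with the largest change against 12-43. Neighbours 1124121, 111683, 78366, 28086 and 238363 and the closest member pairs were named after their values were seen. Family lists by product name were not used, as the table pairs no product names. It matched 3636 of the 14652 identifiers (2019 through current locus tags, 1617 through older ones), with 2 more ambiguous. Alternatives covered pseudocount, filter, scaling, voom, covariates, the thresholds of the rule and each library left out.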

Additional observations from a re-analysis of the deposited data

How the results depend on the processing

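The number of members was 107, and it moved by more than 1.5 times only with a threshold of 6-fold, which left 64. It was 138 at 3-fold, 119 and 96 with floors of 5 and 20 RPKM, and 151 without the condition on the wild types. Scaling before the rule gave 98 members (93 shared) with trimmed means and 94 (90 shared) with upper quartiles, and leaving out each library gave 107 to 119 (96 to 107 shared, all of them by construction where a knockout library was left out). Between the knockout and E6 7822 models were called, and 4758 with the library signature as a covariate, a fit in which 12-43 alone has libraries of both signatures. The counts of calls under the other alternatives stayed within 1.5 times. Over all models tested, same-numbered libraries of different strains did not deviate together (correlations of their deviations -0.001 to 0.025). A pairing by replicate number that touches only some models would not show in these correlations. With a replicate block 6591 models were called between the knockout and 12-43 (6827 without), 7645 between the knockout and E6, and 7225 between E6 and 12-43 (7420 without). Of the named neighbours against E6, 71133 was called higher with unscaled RPKM (adjusted p = 0.028), with voom (0.042) and without E6 replicate 2 (0.01), and 1158954 was called lower without knockout replicate 1 (0.027). The call on 235628 against E6 was also lost with unscaled RPKM (log2 change -0.40, adjusted p = 0.057) and with the covariate (-0.67, 0.062), where the change was larger. Against 12-43 the calls on 235628, 1158954, 1212437, 62138, 71133, 1124121 and 111683 held under each alternative run, 28086 lost its call under 5 (either knockout library or 12-43 replicate 2 left out, voom and the covariate), and 238363 was called with the covariate (0.04) and without 12-43 replicate 2 (0.041). Neighbour 257069, called lower than in 12-43 (log2 change -0.35, limma adjusted p = 0.035), also lost that call under 5. These were the covariate and each knockout or 12-43 library left out. Neighbour 48631, not called against 12-43 (-0.29, limma adjusted p = 0.057), was called lower under 6. Against E6 the calls on 62138, 1124121, 238363 and 28086 held under each, and 78366 lost its call (adjusted p = 0.048) under 9. Neighbours 257069 and 48631, at -0.06 and 0.01 against E6 and not called, changed sign, 257069 with unscaled RPKM (0.03) and without E6 replicate 1 (0.08, against -0.2 without replicate 2), and 48631 with median-of-ratios scaling (-0.0), upper quartiles (-0.04), the covariate (-0.14), without knockout replicate 2 (-0.03) and without E6 replicate 2 (-0.1, against 0.11 without replicate 1). The cause of these changes was not tested. Depth limits the members with few wild-type reads, where the size of the ratio is uncertain.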
